A study of Mus musculus with 15 samples.

Results

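Interferon-induced genes were followed in mouse hearts through 9 members: the GTPases Iigp1, Igtp, Irgm1, Gbp2 and Gbp3, the response genes Ifit1, Ifit3 and Isg15, and the transcription factor Irf7. They were chosen by gene symbol, as every probe set that the platform annotation gives to exactly 1 of these 9 symbols. That rule found 11 of the 12422 probe sets of the array, with 2 each for Iigp1 and Irf7 and 1 for each other gene. In all, 8251 genes have such a probe set. The 9 genes were put forward with 4-week results of these arrays in view, so their values in the 4-week comparison of genotypes are given as a description.

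The series asked what loss of MAT1 from heart muscle does to cardiac RNA. MAT1, encoded by Mnat1, assembles the kinase of transcription factor TFIIH. All hearts carried a Cre recombinase under the αMHC promoter, which is active in cardiomyocytes, so that other cells of the heart keep the gene. Knockout hearts (CKO) were αMHC-Cre+/0; MAT1F/F, with both alleles floxed. Control littermates were αMHC-Cre+/0; MAT1F/+ and thus carried the same Cre, 1 floxed allele and 1 wild-type allele. RNA of hearts at 2 weeks of age was hybridised to 3 control and 4 CKO arrays, and RNA of hearts at 4 weeks to 3 control and 5 CKO arrays. Samples are named here by group and by the sample number of the labels. Nothing in the labels says that samples of a group came from separate mice, so the p-values measure a spread between samples that may be technical.

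Interferons are secreted signals of infection. Type I interferon acts through Ifnar1 and Ifnar2, and a complex that contains Irf9 then binds the interferon-stimulated response element (ISRE). Interferon gamma acts through Ifngr1 and Ifngr2, and its target genes often carry the gamma-activated site (GAS). Iigp1, Igtp and Irgm1 are immunity-related GTPases, which attack or regulate the vacuoles around intracellular pathogens, and Gbp2 and Gbp3 are guanylate-binding proteins with a related role. These GTPase genes are classical targets of interferon gamma. Ifit1 and Ifit3 bind viral RNA or its partners, Isg15 is a ubiquitin-like modifier, and Irf7 amplifies type I interferon production.

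The promoters of these genes are shown because the 9 genes are grouped as interferon-induced, and the ISRE and GAS lie in promoters of such genes. Windows of 300 bases, from 250 before to 50 after the start, were taken from RefSeq on GRCm38.p6 for 8 of the 9 genes, in 9 windows because Gbp3 has 2 starts. Windows on 1 chromosome were left out before the genes were looked up, and among the other windows Iigp1 had no entry. Both strands were searched for the core of the ISRE, taken as GAAA followed after any 2 bases by a second GAAA, and for the core of the GAS, taken as TTC followed after any 3 bases by GAA, with overlapping matches counted. In each sequence the capitals mark the matches, with 20 bases kept on either side where these lie before the start site. The sequences run 5′ to 3′ along the gene's own strand.
Igtp (chr11:58199491-58199551, plus strand): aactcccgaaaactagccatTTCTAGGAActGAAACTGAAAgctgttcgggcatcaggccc
Irgm1 (chr11:48871421-48871470, minus strand): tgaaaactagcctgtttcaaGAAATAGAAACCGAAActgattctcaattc
Gbp2 (chr3:142620584-142620633, plus strand): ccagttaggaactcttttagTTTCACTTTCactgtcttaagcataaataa
Gbp3 (chr3:142559979-142560034, plus strand): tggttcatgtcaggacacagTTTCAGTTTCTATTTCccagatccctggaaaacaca
Ifit1 (chr19:34640765-34640833, plus strand): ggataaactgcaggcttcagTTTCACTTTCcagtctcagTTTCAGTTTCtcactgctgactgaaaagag
Ifit3 (chr19:34583353-34583436, plus strand): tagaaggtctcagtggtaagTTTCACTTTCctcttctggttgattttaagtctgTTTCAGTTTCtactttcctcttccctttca
Isg15 (chr4:156200855-156200916, minus strand): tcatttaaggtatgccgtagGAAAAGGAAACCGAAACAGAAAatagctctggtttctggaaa
The ISRE core was present in 7 of the 8 genes with a window, and 3.443% of the 32851 RefSeq windows searched held it. Windows on 1 chromosome and those not of 300 bases were left out of this share. Irf7 and the second Gbp3 window held neither core, which says only that these letters are not in those windows. Isg15 carried 3 overlapping matches, and Irgm1 and Gbp3 carried 2 overlapping ones each. Ifit1 and Ifit3 carried 2 separate matches each, on the opposite strand, 104 and 85 bases before the start in Ifit1 and 156 and 122 bases before it in Ifit3. Igtp alone among the 8 held the GAS core, 45 bases before the start, next to its ISRE core at 34 bases. The GAS core was found in 8.298% of the same windows.

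Values are deposited intensities on a linear scale, with a floor of 0.95, and differences are given on the log2(intensity + 16) scale, which understates changes of dim probe sets. Array medians ran from 173.7 to 216.8. The members are dim: 10 of the 11 probe sets have a mean below the median probe set of the array, and 8 lie in the lowest 40%. The arrays fell into 2 sets by their correlation over all probe sets, with r of at least 0.937 within a set and at most 0.924 between sets, and each set holds arrays of all 4 groups. Array set 1 holds control sample 1 and CKO samples 1 and 2 at 4 weeks, and control sample 3 and CKO samples 3 and 4 at 2 weeks. Array set 2 holds the other 9 arrays. A blocked fit below has the array set as a block. By Xist and Uty, 1 of 3 control and 4 of 5 CKO samples at 4 weeks, and 1 of 3 and 1 of 4 at 2 weeks, were from females. The RNA extraction of control sample 3 at 4 weeks is worded differently in the labels from that of the other 14 arrays, with the same reagent names. At 4 weeks the targeted gene did not bear out the labels. One Mnat1 probe set read 244 in control and 300.3 and 314 in CKO samples of set 1 at 4 weeks, and 106 and 86.0 against 148, 141 and 149 in set 2. It was thus higher in the arrays labelled CKO within each set (blocked fit 0.45 ± 0.15, adjusted p = 0.0384, limma). The other Mnat1 probe set overlapped between the genotypes at 4 weeks. At 2 weeks that probe set was lower in CKO samples within each set, the direction of the labels. It read 86.25 in control and 52.0 and 33.9 in CKO samples of set 1, and 43.0 and 41.4 against 32.5 and 23.7 in set 2. This difference was not called (blocked fit -0.55 ± 0.22, adjusted p = 0.912, limma). The first probe set was at -0.04 ± 0.16 in the same comparison. Whether the probes match the deleted exons was not examined here, and every direction below rests on the labels alone. Of 11 cardiomyocyte markers, 10 read 936 or more on every array.

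The GTPase genes were high in control hearts at 4 weeks, in samples 2 and 3 above all. The brighter Iigp1 probe set had intensities of 283, 971 and 2113 in control samples 1 to 3 at 4 weeks. In the CKO samples at 4 weeks it read 214, 149, 82.6, 98.8 and 88.7. The 2-week control samples had 207, 159 and 149, and the 2-week CKO samples 99.7, 101, 119 and 168. Every control sample at 4 weeks lay above all 12 other arrays, whose highest value was 214. Sample 3 was 9.88 times that value, sample 2 was 4.54 times and sample 1 was 1.32 times.

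The dimmer Iigp1 probe set, whose name marks probes shared within a gene family, had the same order in the control samples. It read 77.4, 344 and 740.5 in control samples at 4 weeks and 67.5, 44.4, 21.6, 49.3 and 77.3 in CKO samples. The 2-week control samples had 65.3, 65.3 and 41.1, and the 2-week CKO samples 11.1, 36.5, 6.38 and 52.2. Control sample 1 at 4 weeks was level with the highest CKO sample, and samples 2 and 3 stood apart from all other arrays.

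Igtp, a GTPase of the same family, read 37.7, 81.5 and 325 in control samples at 4 weeks. In CKO samples at 4 weeks it read 23.6, 34.3, 13.9, 25.3 and 21.9. At 2 weeks the values were 22.4, 27.9 and 17.8 in control and 18.7, 27.9, 28.6 and 36.6 in CKO samples. Control sample 3 was 8.62 times control sample 1, and the 12 arrays of the other groups stayed at or below 36.6.

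Irgm1, which regulates the other members of its family, was highest in the same array by a smaller margin. It read 53.0, 68.4 and 153 in control samples at 4 weeks and 66.2, 55.9, 36.6, 47.2 and 61.4 in CKO samples. At 2 weeks it lay between 46.2 and 61.2 in control and between 33.1 and 47.4 in CKO samples. Control sample 3 at 4 weeks was 2.30 times the highest of the 12 other arrays, and control sample 1 lay within their range.

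The guanylate-binding protein genes had the same leading array. Gbp2 read 152, 213 and 341 in control samples at 4 weeks and 199, 185, 165, 163 and 149.6 in CKO samples. Gbp3 read 148, 193.5 and 374 in control samples at 4 weeks and 169, 159, 75.5, 81.7 and 97.6 in CKO samples. At 2 weeks Gbp2 lay between 112 and 161 in control and between 79.4 and 174 in CKO samples, and Gbp3 between 66.4 and 145 and between 65.8 and 153. For both genes control samples 2 and 3 at 4 weeks were above all 12 arrays of the other groups, and sample 1 was among them. Gbp3 also followed the array sets: outside the control samples at 4 weeks, set 1 lay between 135 and 169 and set 2 between 65.8 and 97.6.

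**Figure D1:**
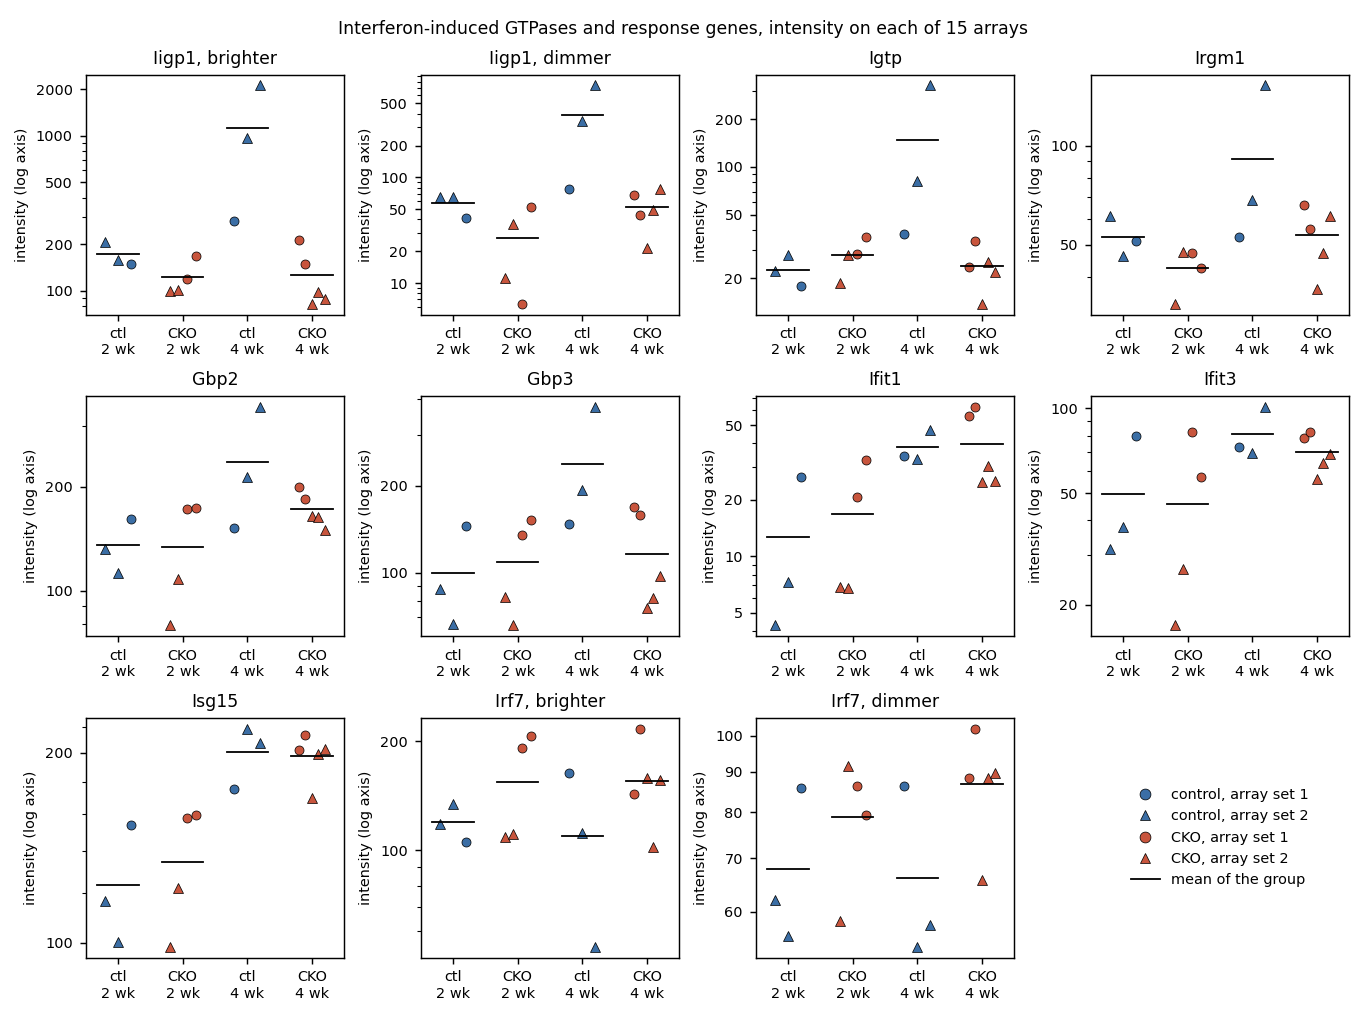
Intensity of the 11 probe sets (log axes, each panel with its own range) on every array, with control in blue, CKO in red, circles for array set 1, triangles for array set 2 and bars for group means. The control samples at 4 weeks spread from 283 to 2113 for the brighter Iigp1 probe set and from 37.7 to 325 for Igtp, while the means of Ifit1 and Isg15 are higher at 4 than at 2 weeks in both genotypes.

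The antiviral response genes had no single direction between the genotypes at 4 weeks: it turned with the array set, as it did for Irgm1, Gbp2 and Gbp3. Set 1 holds 1 control sample at 4 weeks, so the set cannot be told apart from that sample. Ifit1 read 34.3, 33.2 and 46.8 in control and 55.7, 62.4, 25.0, 30.2 and 25.3 in CKO samples at 4 weeks. The 2-week control samples had 4.30, 7.28 and 26.5, and the 2-week CKO samples 6.86, 6.82, 20.8 and 32.4. The highest array was CKO sample 2 at 4 weeks, and at each age and in each genotype except control at 4 weeks the arrays of set 1 were the higher ones. At 4 weeks the CKO minus control difference of Ifit1 was 0.58 ± 0.23 within set 1 and -0.38 ± 0.22 within set 2 (log2, neither called by limma).

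Isg15 read 175, 219 and 207 in control and 203, 214, 169, 199 and 203 in CKO samples at 4 weeks. At the younger age control samples had 116, 100.3 and 154, and CKO samples 98.6, 122, 158 and 159. In each genotype every 4-week array lay above every 2-week array. Ifit3 read 73.0, 69.4 and 101 in control and 78.6, 82.3, 56.3, 63.7 and 68.6 in CKO samples at 4 weeks. Its 2-week range ran from 31.5 to 79.5 in control and from 16.9 to 82.2 in CKO samples, so that the ages overlapped. The 4-week genotype difference was 0.23 within set 1 and -0.15 within set 2 for Isg15, and 0.11 and -0.35 for Ifit3, with none of them called.

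Irf7 ran against the GTPases in the control samples at 4 weeks. Its brighter probe set read 164, 111 and 54.3 in them and 143, 217, 158, 102 and 156 in CKO samples. At 2 weeks it lay between 106 and 134 in control and between 109 and 206 in CKO samples. The array with the highest Iigp1 level, control sample 3 at 4 weeks, had the lowest Irf7 level of all 15 arrays. Its dimmer one read 86.3, 54.2 and 57.7 in control samples at 4 weeks and between 65.7 and 102 in CKO samples. The 2 lowest control values were again in samples 2 and 3, both of array set 2. In 2-week control samples this probe set also split by array set, at 86.0 in set 1 and 62.0 and 55.9 in set 2.

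Control sample 3 at 4 weeks was the highest of 15 arrays for 7 of the 11 probe sets (Iigp1 with both, Igtp, Irgm1, Gbp2, Gbp3 and Ifit3), against 964 of all 12422 probe sets, or 7.76%. CKO sample 2 at 4 weeks was highest for 3 probe sets (Ifit1 and both of Irf7), and control sample 2 for Isg15. The median of the 11 probe sets stood 0.99 (log2) above their 15-array medians in control sample 3, 0.34 above in sample 2 and 0.12 above in sample 1, while that of all probe sets stood between -0.08 and 0.06.

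At 4 weeks the difference between CKO and control hearts was confined, by call, to Iigp1 and Igtp, and these are values that the choice of the genes rests on. The CKO minus control difference was -2.66 ± 0.47 (log2, SE, n = 3 against 5) and -2.18 ± 0.55 for the 2 Iigp1 probe sets and -1.63 ± 0.42 for Igtp. Called genes have an adjusted p under 0.05 in limma's fit to all probe sets. By this rule 3 of the 11 probe sets were called, all lower, where 6.27% of all probe sets were called and 2.42% were called lower. In the same 3 probe sets every CKO array lay below every control array, which held for 4.71% of all probe sets. Gbp3 differed by -0.91 ± 0.35, Irgm1 by -0.53 ± 0.25, Gbp2 by -0.35 ± 0.26 and Ifit3 by -0.17 ± 0.32. Isg15 and Ifit1 differed by -0.02 ± 0.18 and -0.01 ± 0.33. The Irf7 probe sets were the only 2 with a value above 0, at 0.51 ± 0.30 and 0.34 ± 0.20. The median of the 11 was -0.35, against 0.07 over all probe sets.

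**Figure D2:**
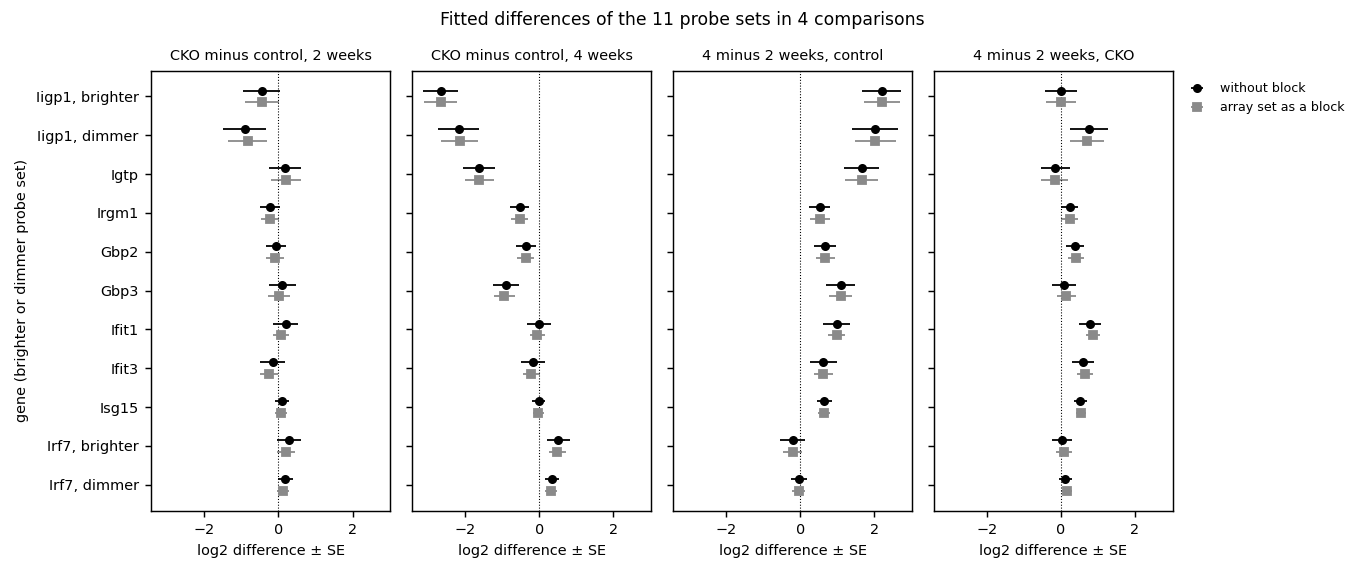
Log2 difference with its standard error (x axis) for each of the 11 probe sets (y axis) in 4 comparisons, fitted without a block (black circles) or blocked on the array set (grey squares). At 4 weeks Iigp1 and Igtp lie between -2.66 and -1.62, at 2 weeks all probe sets lie between -0.91 and 0.28, and with age Ifit1 and Isg15 lie above 0 in both genotypes.

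The size of the 4-week difference turned on which control samples were used. In the blocked fit 4 of 11 probe sets were called, all lower, with Gbp3 at -0.94 ± 0.28 added. Of all probe sets 22.2% were called in that fit, and 7.7% were called lower. Within array set 2, which holds control samples 2 and 3, Iigp1 differed by -3.78 ± 0.28 and Igtp by -2.34 ± 0.42. Within array set 1, which holds control sample 1 alone, they differed by -0.62 ± 0.27 and -0.27 ± 0.23, and no probe set of the 11 was called, where 8.11% of all were. Irgm1, Gbp2 and Gbp3 lay at 0.16, 0.30 and 0.13 in set 1 and at -0.91, -0.71 and -1.51 in set 2. Without control sample 3 the difference of Iigp1 (brighter probe set) was -2.01 and it was the 1 probe set called, against 3.24% of all, and Igtp was at -0.88. Without control sample 2 Iigp1 was again the 1 called, at -2.56, against 2.75% of all. Without both, Iigp1 was at -1.15, Igtp at -0.45, Irgm1 at -0.01 and Gbp2 at 0.16, and none was called, where 0.386% of all were. That fit leaves 1 control sample at 4 weeks, which is assumed to vary like the other groups, as does the fit within set 1. Leaving out CKO sample 3 or CKO sample 4 also left 1 probe set called, against 4.8% and 4.76% of all. In bulk tissue, fewer cells of a type and less RNA per cell cannot be told apart.

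**Figure D3:**
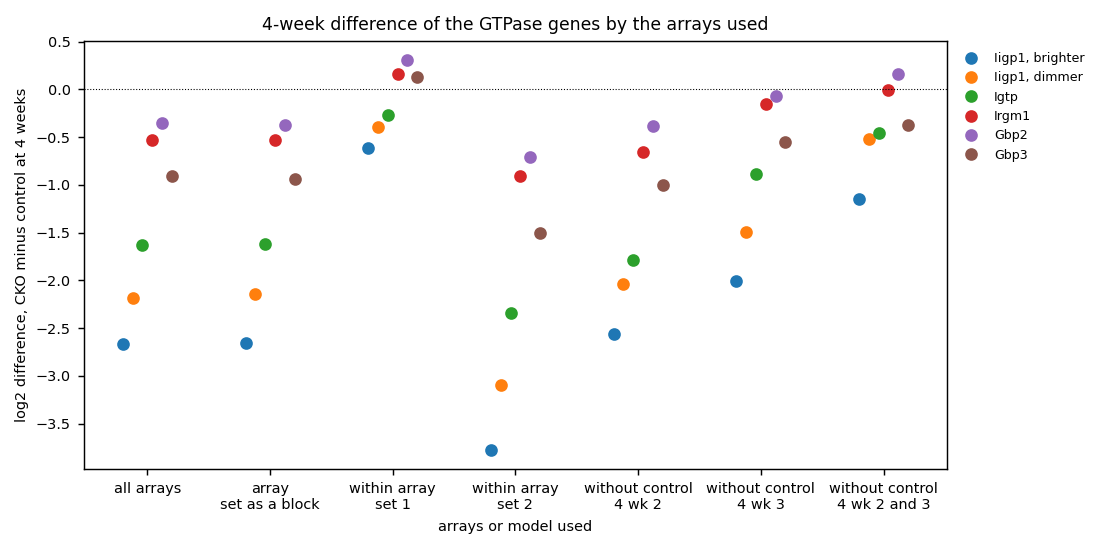
CKO minus control difference at 4 weeks (log2, y axis) of the 6 GTPase probe sets under 7 choices of arrays or model (x axis). Iigp1 (brighter probe set) goes from -3.78 within array set 2 to -0.62 within array set 1, and Gbp2, Gbp3 and Irgm1 lie above 0 within set 1.

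At 2 weeks none of the 11 probe sets differed between the genotypes by limma's test. None was called (adjusted p = 1 for each), none had an unadjusted p under 0.05, and 0.00805% of all probe sets were called. Differences ran from -0.91 ± 0.58 for Iigp1 (dimmer probe set) to 0.28 ± 0.32 for Irf7 (brighter probe set), with 6 of 11 above 0 and a median of 0.10, against 0.04 over all probe sets. Iigp1 (brighter probe set) was at -0.46 ± 0.49, and its groups overlapped. Igtp was at 0.18 ± 0.44, Gbp2 at -0.06 ± 0.28, Gbp3 at 0.10 ± 0.37 and Ifit1 at 0.19 ± 0.34. None was called in the blocked fit either, where 0.0564% of all probe sets were.

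Ifit1 and Isg15 had higher values at 4 than at 2 weeks in hearts of both genotypes, and were called in both in the blocked fit. These comparisons share the 4-week arrays with the comparison that the genes were chosen on. In CKO hearts Ifit1 was higher at 4 weeks by 0.79 ± 0.30 and Isg15 by 0.52 ± 0.17, neither past the threshold (adjusted p = 0.241 and 0.122, limma), and none of the 11 probe sets was called where 3.33% of all were. The blocked fit called both, at 0.85 ± 0.19 (adjusted p = 0.00529, limma) and 0.54 ± 0.13 (adjusted p = 0.0106), where 14.3% of all probe sets were called. Isg15 was the 1 probe set of the 11 with every 4-week array above every 2-week array in CKO hearts, which held for 4.27% of all. Within set 1, the values were 0.83 for Ifit1 and 0.36 for Isg15, and within set 2 they were 0.91 and 0.71. Ifit3 was at 0.60 ± 0.30 and Iigp1 (brighter probe set) at 0.00 ± 0.43.

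In control hearts the values of the GTPases were higher at 4 weeks too, but none of the 11 probe sets was called without the block. Iigp1 was higher at 4 weeks by 2.20 ± 0.53 (brighter probe set) and 2.03 ± 0.61 (dimmer), Igtp by 1.66 ± 0.47, Gbp3 by 1.09 ± 0.39 and Ifit1 by 0.98 ± 0.37. Gbp2 was higher by 0.68 ± 0.29, Isg15 by 0.65 ± 0.20, Ifit3 by 0.62 ± 0.36 and Irgm1 by 0.53 ± 0.28, and the Irf7 probe sets were at -0.20 and -0.04. Of all probe sets 0.338% were called, and the lowest adjusted p of the 11 was 0.126 (limma). With arrays left out the differences ran from 0.69 to 2.96 and from 0.37 to 2.85 for the 2 Iigp1 probe sets, from 0.48 to 2.24 for Igtp, from 0.56 to 1.36 for Gbp3, from 0.17 to 0.93 for Gbp2 and from 0.0071 to 0.80 for Irgm1. Without control sample 3 at 4 weeks alone they were 1.55 and 1.34 for Iigp1, 0.91 for Igtp and 0.15 for Irgm1. At an unadjusted p under 0.05 stood 7 of the 11, against 5.41% of all probe sets. The genes were put forward with results of these 4-week control arrays in view, so the counts with age in control hearts are a description. For 6 probe sets of 5 genes (both of Iigp1, Igtp, Gbp3, Ifit1 and Isg15) every 4-week array lay above every 2-week array, which held for 4.49% of all. The blocked fit called 3, against 2.97% of all: Iigp1 (brighter probe set, adjusted p = 0.0219, limma), Ifit1 at 0.98 ± 0.23 (adjusted p = 0.0283) and Isg15 at 0.65 ± 0.16 (adjusted p = 0.0421). In a blocked fit without control sample 3 at 4 weeks none was called, where 1.2% of all were, and Ifit1 and Isg15 were at 0.75 and 0.58. Within set 2, 7 probe sets of 6 genes were called, where 2.66% of all were. Within set 1, with 1 control sample at each age, Iigp1 was at 0.85, Igtp at 0.67, Ifit1 at 0.24 and Isg15 at 0.17, and none was called, where 0.0322% of all were.

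The genotype difference itself was not called as changing with age for any of the 11 probe sets. This comparison contains the 4-week difference and is given as a description. It was largest for Iigp1 (brighter probe set), at -2.21 ± 0.68, and for Igtp, at -1.80 ± 0.61, and it was -0.20 ± 0.47 for Ifit1 and -0.12 ± 0.26 for Isg15. Of all probe sets 0.531% were called. The blocked fit called none of the 11, and 5.5% of all. Without control sample 1 at 4 weeks 2 of the 11 were called, where 0.829% of all were.

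Other genes of the pathway came from 5 lists with 78 measured genes, assembled with earlier results of these arrays known. Among ligands and receptors, 9 genes were measured and 2 fell in CKO hearts at 4 weeks, where 2.42% of all probe sets were called lower. These were Ifngr2, the second chain of the gamma receptor, by 0.57 ± 0.12 (adjusted p = 0.0109, limma), and Il10rb, a chain of the lambda receptor, by 0.43 ± 0.11 (adjusted p = 0.0242). Ifngr2 also fell with age in CKO hearts, by 0.48 ± 0.11 (adjusted p = 0.0312). Ifng, the gamma ligand, was dim, at 79.0, 6.53 and 21.1 in control samples 1 to 3 at 4 weeks, and its range in CKO samples was 35.5 to 96.5. The 2 control arrays with the highest Iigp1 levels were thus the 2 lowest of the 8 arrays at 4 weeks for Ifng. Both are of array set 2, and Ifng followed the array set over all groups. It lay between 72.8 and 104 on the arrays of set 1 and between 6.53 and 71.6 on those of set 2. Ifnb1 was at -0.09 ± 0.39 in the 4-week comparison, Ifnar1 at 0.31 ± 0.23 and Ifngr1, the ligand-binding chain, at 0.65 ± 0.22, none past the threshold. In the blocked fit 2 of the 9 were called lower and 2 higher at 4 weeks, where 7.7% and 14.5% of all probe sets were. The 2 higher ones were Ifng at 0.82 ± 0.26 (adjusted p = 0.0308, limma) and Ifngr1 at 0.65 ± 0.20 (adjusted p = 0.0277).

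Of 16 signalling genes and transcription factors, none was called between the genotypes at either age. In the blocked fit 2 were higher and 1 lower at 4 weeks, where 14.5% and 7.7% of all probe sets were. Jak2, a kinase of the gamma receptor, rose with age in CKO hearts by 0.56 ± 0.14 (adjusted p = 0.0429, limma). Irf1, a factor induced by interferon gamma, read 77.0, 63.1 and 127 in control samples at 4 weeks and 75.4, 86.6, 34.6, 19.7 and 38.3 in CKO samples, a difference of -0.71 ± 0.33 (adjusted p = 0.303) that was called in the blocked fit (-0.75 ± 0.24, adjusted p = 0.0329). Irf9, the DNA-binding part of the complex on the ISRE, read 237, 284 and 379 in the control samples and differed by -0.34 ± 0.29 (adjusted p = 0.705). Both were highest of all arrays in control sample 3 at 4 weeks.

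Of 6 other interferon-induced GTPase genes none was called in any comparison, and 3 of the 6 were highest in control sample 3 at 4 weeks. Gbp7, chosen here after its values were seen, read 275.5, 291 and 686 in control samples at 4 weeks and at most 361 on any other array. Of 32 other antiviral response genes, none was called between the genotypes or with age in control hearts, and 3 rose with age in CKO hearts, where 2.06% of all probe sets rose. These were Ifi27l2a, a mitochondrial protein, by 1.17 ± 0.25 (adjusted p = 0.0193, limma), Ifi202b, a DNA-binding protein, by 0.87 ± 0.20 (adjusted p = 0.0294) and Lgals3bp, a secreted glycoprotein, by 0.86 ± 0.22 (adjusted p = 0.0496). In the blocked fit 9 of the 32 rose with age in CKO hearts, against 8.52% of all probe sets, and 2 rose in control hearts, against 1.58%. In that fit 5 of the 32 were higher in CKO than in control hearts at 4 weeks, a share near the 14.5% of all probe sets that were higher. Control sample 3 at 4 weeks was the highest array for 3 of the 32.

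The genes of antigen presentation by MHC class I were mostly high in the same control array as the GTPases. Of 15 measured, 10 were highest in control sample 3 at 4 weeks. An H2-K1 and an H2-D1 probe set, both with names that mark probes shared within a gene family that presents peptides, rose with age in control hearts by 0.87 ± 0.15 (adjusted p = 0.0238, limma) and 0.91 ± 0.16 (adjusted p = 0.0265). The blocked fit had 7 of 15 that rose with age in control hearts, against 1.58% of all probe sets. In CKO hearts 3 rose, against 8.52% of all, and 1 fell, where 713 of all 12422 did. Psme1, a proteasome activator subunit, fell in CKO hearts at 4 weeks by 1.40 ± 0.35 (adjusted p = 0.028, limma). In the blocked fit 6 of 15 fell, against 7.7% of all probe sets. The immunoproteasome subunits Psmb8 and Psmb9, chosen here after their values were seen, read 126, 252 and 634 and 85.9, 209 and 426 in control samples 1 to 3 at 4 weeks. On the 12 other arrays they stayed at or below 151 and 109.8. The median difference of the list with age in control hearts was 0.63, against 0.15 for the antiviral list and -0.03 over all probe sets.

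**Figure D4:**
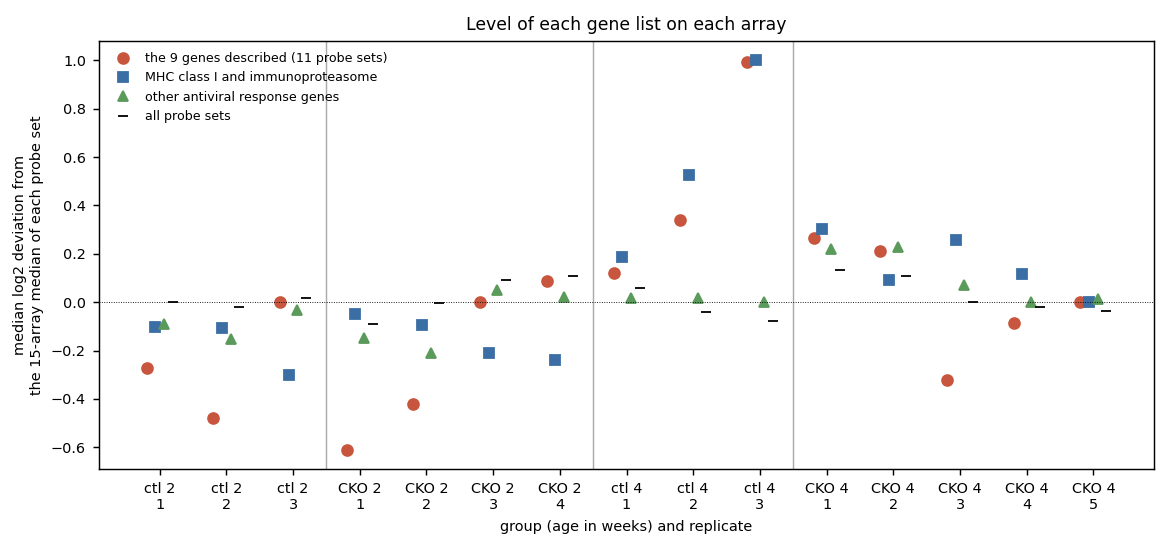
Median log2 deviation of each list from its probe sets' 15-array medians (y axis) on each array (x axis, by group and sample number). The 11 probe sets and the MHC class I list stand near 1.0 in control sample 3 at 4 weeks, and the antiviral list does not.

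Likeness was measured across the 15 arrays with array set means removed. Pearson's r to Iigp1 (brighter probe set) was 0.93 for Gbp3, 0.92 for Igtp, 0.85 for Irgm1 and 0.76 for Gbp2, and it was 0.54 for Ifit3, 0.50 for Ifit1, 0.42 for Isg15 and -0.62 and -0.54 for Irf7. To Ifit1, r was 0.92 for Isg15, 0.81 for Gbp2 and for Ifit3 and 0.67 for Gbp3. Spearman's rho to Iigp1 was lower than r, at 0.76 for Gbp3, 0.78 for Igtp, 0.64 for Irgm1 and 0.32 for Gbp2, while rho to Ifit1 was 0.93 for Isg15, 0.84 for Gbp2 and Ifit3 and 0.68 for Gbp3. Gbp2 was thus nearer to Ifit1 than to Iigp1 by both measures. Among 5541 probe sets of other genes with a mean log2 value above the median probe set, those most like Iigp1 were a probe set of H2-K1 (r = 0.96), the G protein subunit Gna12 (0.94), the glutathione transferase Gstk1 (0.93), the ADP-ribosyltransferase Art1 (0.92) and the lipogenesis regulator Mid1ip1 (0.91). The brightness limit shaped this list: the H2-K1 probe set had a mean of 352 in control samples at 4 weeks and of 163, 175 and 177 in the other groups, and Psmb8, with r = 0.917, was too dim to be a candidate. Those most like Ifit1 were Faf1 (0.95), the class I light chain B2m (0.94), the quinone reductase Nqo1 (0.93), the translation factor Eif5b (0.92) and another probe set of H2-K1 (0.92). These values describe likeness over arrays that share groups, and control samples 2 and 3 at 4 weeks weigh heavily in those for Iigp1.

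Markers of other cell types were set beside these levels. The summed intensity of 13 macrophage markers was 3187, 4190 and 5095 in control samples 1 to 3 at 4 weeks, in the order of their Iigp1 levels. It ranged from 3241 to 6428 in CKO samples at 4 weeks and from 2953 to 3426 at 2 weeks. Single markers did not all share the order of the sum in the control samples at 4 weeks. C1qa, C1qb, C1qc, Lyz2, Ctss, Csf1r, Mrc1 and Aif1 rose from sample 1 to 3. Adgre1, Fcgr1 and Mpeg1 fell, and Cd68 and Cd14 did neither throughout. The highest sum of all arrays was that of CKO sample 4 at 4 weeks, where Iigp1 read 98.8 (brighter probe set). Within each genotype at 4 weeks the samples of set 1 had the lowest sums of macrophage markers. Of these markers 1 was called at 4 weeks, Aif1, lower in CKO hearts by 2.00 ± 0.33 (log2). For 16 T and NK cell markers the sum was 3358, 2446 and 1883 in the 3 control samples, and 1 marker, Thy1, was called, higher in CKO hearts. This sum followed the array set: it lay between 3213 and 4007 on the 6 arrays of set 1 and between 1883 and 2460 on the 9 of set 2. The sums of 8 B cell, 9 neutrophil and 6 dendritic cell markers were also lowest in sample 3 of these 3 and highest in sample 1, the one from set 1. Of the neutrophil markers Csf3r was called, lower in CKO hearts by 0.82 ± 0.21. The summed intensity of 11 cardiomyocyte markers was 73470, 78346 and 79944 in control samples 1 to 3 at 4 weeks, in the order of their Iigp1 levels. It was 64385 to 69874 in CKO samples, with no overlap. Within each genotype the samples of set 1 had the lowest sums, at 73470 in control and 64385 and 66416 in CKO samples. Of these markers 4 (Tnni3, Ryr2, Myh6 and Tnnt2) were called lower in CKO hearts and none higher. In the blocked fit 4 were called lower and 1 higher, where 7.7% and 14.5% of all probe sets were. Of the 11, 3 had a difference above 0. Actn2 read 5803 to 7236 in CKO and 3719 to 5382 in control samples. The sum of 11 endothelial markers was 6567, 8038 and 8771 in control samples 1 to 3, again in the order of Iigp1. It was 7401 to 10628 in CKO samples, and Eng was called, higher in CKO hearts by 0.54 ± 0.14. This sum followed the array set as well. It lay between 6567 and 7977 on the 6 arrays of set 1 and between 8038 and 11689 on the 9 of set 2. Fibroblast markers were higher in CKO hearts at 4 weeks for 8 of 10, with summed intensities of 14632 to 16117 in control and 27532 to 35027 in CKO samples. The part of these cells in the levels of the members was not tested.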

How the data were processed

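Heart RNA was measured on 15 one-colour arrays. The authors deposited 1 intensity per probe set and array, on a linear scale. How they made it (scanner software, background correction, scaling) was not given in the sources used here. Deposited scaling was kept, and limma 3.58.1 (R 4.3.3) was fitted to log2(intensity + 16) of the deposited values, using all 15 arrays, a coefficient for each of the 4 groups and a variance trend. P-values are two-sided and adjusted by Benjamini-Hochberg over all 12422 probe sets, without a filter on dim ones, and the threshold was 0.05. Errors are standard errors of the fit unless named. In the platform annotation 10833 probe sets have 1 gene symbol, 396 have several and 1193 have none, and 10817 of the first were in a gene table of GRCm38.p6. The genes described and the pathway and marker lists were chosen with earlier results of these data known. Every probe set of the 9 genes was named. From the pathway lists, genes called in any comparison without a block and a fixed set of ligands, receptors and factors were named, and Gbp7, Psmb8 and Psmb9 were added. Markers of cell types were named where they stand beside a result. At 2 weeks samples with the same number deviated together (r = 0.66, 0.59 and 0.85 over all probe sets), and a fit with that number as a block left none of the 11 probe sets called there. Samples with the same number were also of the same array set at 2 weeks. These r values therefore cannot tell a pairing by number from the array set. The array sets were found from the values. The number of arrays limits the precision. The fit was tested on simulated data.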

Additional observations from a re-analysis of the deposited data

How the results depend on the processing

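Alternatives were other models, scalings, pseudocounts and filters and each array left out, with 2 of them added after seeing the data (the array set as a block without control sample 3 at 4 weeks, and both control samples 2 and 3 left out). At 4 weeks, 3 of 11 probe sets were called. The number was 0 within array set 1 and 1 with the replicate block. The filter on dim probe sets used the mean over all arrays, which the control samples at 4 weeks raised for Iigp1 (brighter probe set). On the 12 arrays of the other groups its median intensity was 134. Irf7 (brighter probe set), which did not pass, had 139 there. Passing the filter was thus not independent of the difference tested. With this filter the number was 1, of the 3 probe sets that passed. It ran from 0 to 3 with arrays left out. At 4 weeks samples with the same number did not all deviate together (r = 0.79, -0.52 and 0.47 for numbers 1 to 3). The samples of number 2 were of different array sets there, and those of numbers 1 and 3 were of the same set. At 2 weeks the count was 0 under every alternative run. With age in control hearts it was 0, against 3 with the array set as the block, 7 within set 2, 6 with array set and inferred sex as blocks, 4 with the array set block and quantile normalization, and 0 to 3 with arrays left out. With age in CKO hearts it was 0, against 2 with that block, 3 within set 2, 3 with inferred sex added and 2 with the block and quantile normalization. For the difference of the effects it was 0, against 1 within set 2, 1 with the block and quantile normalization, and 0 to 2 with arrays left out. The replicate block changed no other count. The cause was not tested.

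Signs turned for small differences. At 2 weeks the value within set 1 was -0.010 for Ifit1, -0.018 for Gbp3, 0.10 for Gbp2 and -0.045 for Irf7 (dimmer). Within set 2 it was -0.042 for Gbp3, -0.17 for Irf7 (brighter) and -0.072 for Igtp. With set and sex it was -0.021 for Gbp3. With arrays left out, the 2-week value ran from -0.20 to 0.13 for Gbp2, from -0.11 to 0.37 for Gbp3, from -0.022 to 0.51 for Ifit1, from -0.42 to 0.16 for Ifit3 and from -0.016 to 0.26 for Isg15. With age in control hearts it was, within set 1, -0.072 for Gbp2, -0.10 for Ifit3, 0.56 for Irf7 (brighter) and 0.004 for Irf7 (dimmer). The 2 Irf7 probe sets ran from -0.51 to 0.41 and from -0.21 to 0.30 with arrays left out, added settings included, and the first was 0.10 with the block and without control sample 3. With age in CKO hearts Iigp1 (brighter) was at 0.31 within set 1, 0.088 with the replicate block, 0.20 with set and sex, 0.012 with quantile normalization and 0.0062 with a pseudocount of 64. Irf7 (brighter) was at -0.16 within set 1, and Igtp at 0.040 with set and sex. With arrays left out Iigp1 ran from -0.20 to 0.14, Irf7 from -0.11 to 0.17 and Gbp3 from -0.10 to 0.25. Most members are dim, and signal near background limits their precision.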
